A study of Mus musculus with 6 samples.

Results

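The 10 genes described here encode the molecules by which regulatory T (Treg) cells hold other immune cells in check: the machinery that carries and activates TGF-beta (*Lrrc32*, *Itgb8*, *Tgfb1*, *Furin*), the enzymes that turn extracellular ATP into adenosine (*Entpd1*, *Nt5e*), the surface receptor *Nrp1*, the cytokine genes *Ebi3* and *Il10*, and the secreted protein gene *Fgl2*. They were chosen by gene symbol as known mediators of Treg suppression, with earlier results of these data known. All 10 were among the 24420 genes in the table, and 9 passed the filter on low counts that left 10949 genes to test. Lymph node Treg cells that express YFP were taken from C57BL/6 females for RNA sequencing, 3 samples labelled Foxp3YFP-Cre/wtOgtwt/fl (OGT-sufficient) and 3 labelled Foxp3YFP-Cre/wtOgtfl/fl (OGT-deficient), and the comparison asks how these genes differ when the cells lack OGT, the enzyme that attaches O-GlcNAc to proteins inside the cell. The methods give an age of 6 to 12 weeks for such mice unless noted. Both genotypes carry a YFP-Cre fusion in the *Foxp3* locus on 1 X chromosome and at least 1 floxed *Ogt* allele, also X-linked, so each female holds YFP+ Treg cells that express Cre and YFP- Treg cells that do not. The sources used here do not give which X chromosome bears the floxed allele in the wt/fl females, and calling their YFP+ cells OGT-sufficient follows the study's own usage. CD4 beads and then a sort on YFP were used to collect the cells.

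TGF-beta is made as a pro-protein that furin, the product of *Furin*, cuts into a mature cytokine and a latency peptide, which stay bound to each other so that the cytokine is inactive. On Treg cells GARP, the product of *Lrrc32*, holds this latent complex at the cell surface, and the integrin that contains the beta-8 chain (*Itgb8*) binds an arginine-glycine-aspartate (RGD) motif in the latency peptide and frees the cytokine. CD39 (*Entpd1*) breaks ATP down to AMP and CD73 (*Nt5e*) turns AMP into adenosine, which dampens effector T cells. EBI3 is a chain of interleukin-35, and interleukin-10 and FGL2 act on other leukocytes as soluble factors.

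The *Tgfb1* coding sequence is printed because it holds the sites where the integrin and furin act. In the GENCODE M21 transcript, codons 242 to 280 of 390 lie in exon 5, on the plus strand at chr7:25697136-25697252 of GRCm38, the build the submitters name as mm10. The capitals mark first the 3 codons of the RGD motif (residues 244 to 246), which the integrin binds, and then the 4 codons of the furin site (residues 275 to 278). The motifs are separated by 28 residues, and 112 residues of mature cytokine follow the furin site.
*Tgfb1* codons 242 to 280: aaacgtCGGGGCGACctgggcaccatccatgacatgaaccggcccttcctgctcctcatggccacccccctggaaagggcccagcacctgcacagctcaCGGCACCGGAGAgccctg

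RefSeq (GRCm38.p6) gave 10 promoter windows for 8 of the genes, each from 250 bases before to 50 bases after a gene start. There was no window for *Lrrc32* or *Il10*, so the promoters of these genes were not searched. They were searched on both strands for the STAT letters TTCNNNGAA, the forkhead letters TGTTTAC and the AP-1 letters TGANTCA, patterns of factor families known in Treg cells that were chosen with the sequences in view. The STAT letters were found in 1 of the 10 windows, against 8.30% of all 32851 windows of this length. The AP-1 letters were also in 1 of 10, against 7.81% of all windows, and the forkhead letters in 1 of 10, against 3.65%. The STAT and AP-1 matches were both in the *Fgl2* window, within the last 36 bases before its start and without overlap, and the forkhead match began at base 31 from 1 of the 2 *Furin* starts. That *Furin* start lies inside the gene span (chr7:80389194-80405441, minus strand), not at its outer end. These matches describe letters only. The *Fgl2* stretch (plus strand, chr5:21372553-21372672, directly before the start) is printed with both matches in capitals, and the *Furin* stretch (minus strand, chr7:80402764-80402793) with its forkhead match, read on the reverse strand, in capitals, since these are 2 of the 3 genes that differed between the groups at an unadjusted p under 0.05.
*Fgl2* upstream of its start: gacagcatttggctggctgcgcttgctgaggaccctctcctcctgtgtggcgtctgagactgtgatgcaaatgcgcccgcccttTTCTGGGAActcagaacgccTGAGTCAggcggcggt
*Furin* after that start: cagcggcccgaGTAAACAagccgcgccgcc

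Total counts were between 3375454 and 4103552 per sample, and 3 counts correspond to between 0.756 and 0.805 counts per 1000000 of the scaled library size (CPM). *Ogt* was between 149.6 and 250.9 CPM in the OGT-sufficient and between 67.0 and 96.0 CPM in the OGT-deficient samples, without overlap (log2 fold change -1.21 ± 0.21, SE, FDR = 0.191). *Foxp3* was between 188.5 and 299.1 CPM against 248.7 to 291.3 CPM, and the summed level of 8 Treg markers was 2300 to 3333 CPM against 3052 to 3488 CPM. Macrophage transcripts were counted in every sample: all 12 listed markers, *Csf1r* and *Vcam1* among them, passed the filter, none was at 0 throughout, and their summed level ran from 2148 to 4449 CPM in the OGT-sufficient and from 1651 to 6358 CPM in the OGT-deficient samples, of which replicate 1 was the lowest. OGT-sufficient replicate 3 stood apart, with 18346 genes at 1 count or more against 14412 to 15197 in the other samples, and with the highest summed levels of B cell (307.8 against 85.0 to 146.6 CPM), neutrophil (135.3 against 6.68 to 26.6 CPM) and erythroid markers (716 against 168.9 to 379.7 CPM, *Hba-a1* at 0 throughout). It had the lowest CPM of its group for 9 of the 9 tested mediators, while over all tested genes it was the lowest of its group for 40.5%. In sorted bulk RNA, fewer cells of a type and less RNA per cell cannot be told apart.

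Of the 9 tested mediators, *Lrrc32* and *Furin* were higher and *Fgl2* lower in OGT-deficient Treg cells at an unadjusted p under 0.05, and the other 6 passed in neither direction. Over all tested genes 3.09% were higher and 4.01% lower at that threshold. At an FDR of 0.1 none of the 9 was called in the reported fit by edgeR's quasi-likelihood test. That fit called 0.0274% of all genes (3 genes, *Ttn*, *Il18rap* and *Myo6*). *Lrrc32* was called by DESeq2 and by edgeR's exact test, the only mediator that was, in backgrounds of 0.347% and 0.731% of genes. The CPM of the groups did not overlap for *Lrrc32* and *Furin*, both higher, and overlapped for the other 7, while 5.72% of all tested genes were higher and 7.48% lower without overlap. The median log2 fold change of the 9 was 5.69e-05, against -0.02 over all tested genes. Without OGT-sufficient replicate 3, *Lrrc32* was higher and *Fgl2*, *Nrp1*, *Nt5e* and *Ebi3* were lower at an unadjusted p under 0.05, 5 in all, where 3.31% of all genes were higher and 3.62% lower. With OGT-deficient replicate 2 left out, and likewise with replicate 3 of that group left out, *Lrrc32* was the 1 mediator below that p, where 4.15% and 6.59% of all genes passed.

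**Figure D1:**
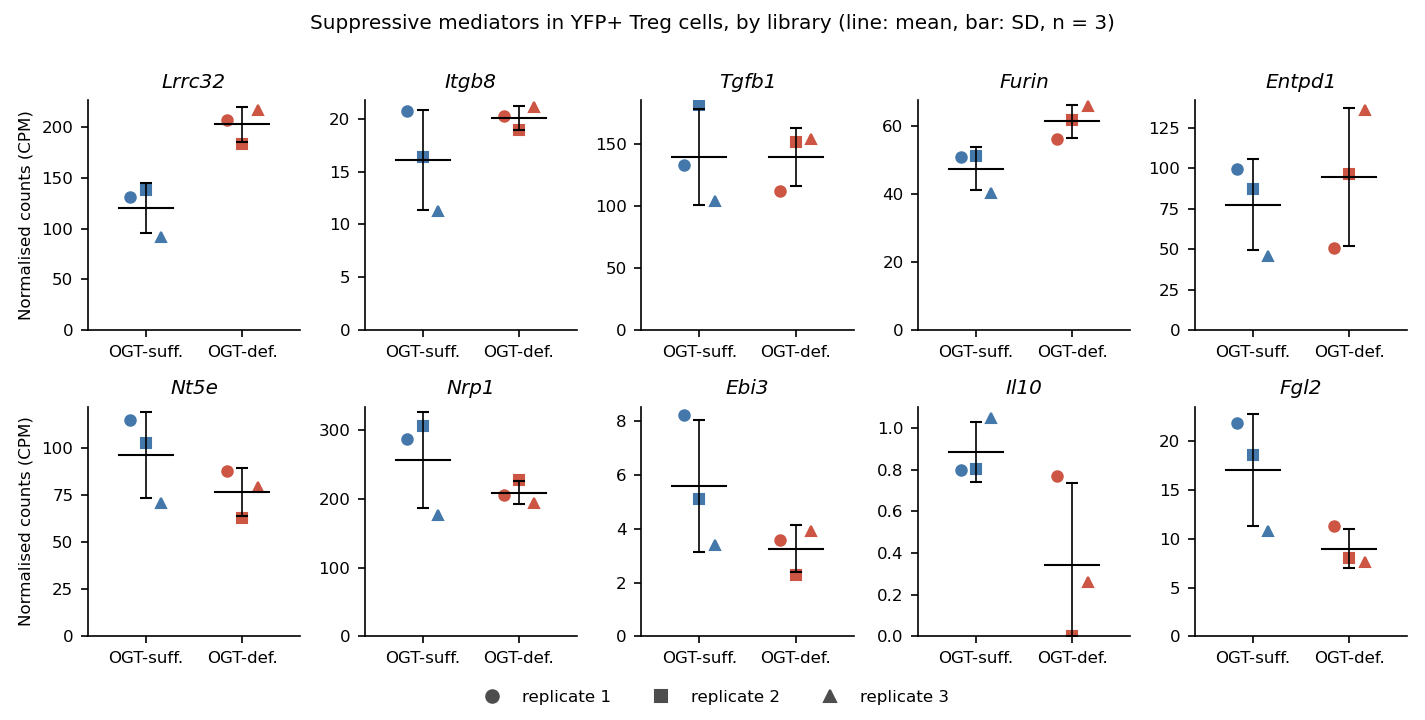
Each panel plots the normalised counts of 1 gene (CPM, linear axis from 0) in the 3 OGT-sufficient (blue) and 3 OGT-deficient (red) libraries, with the mean (line) and SD (bar). The red points sit above all blue points for Lrrc32 and Furin, and the blue triangle, OGT-sufficient replicate 3, is the lowest blue point in every panel except Il10.

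**Figure D2:**
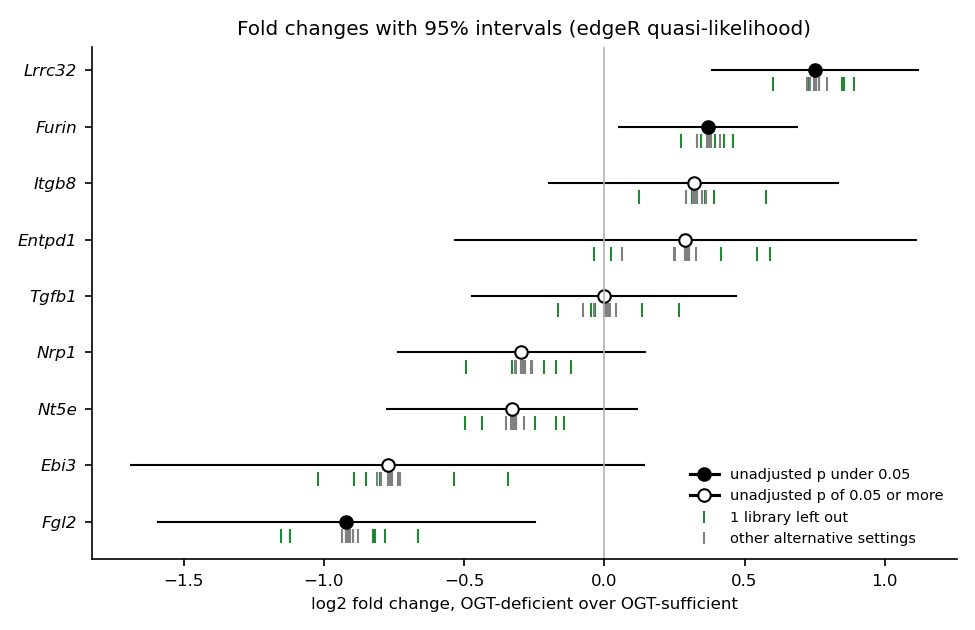
The horizontal axis gives the log2 fold change of OGT-deficient over OGT-sufficient cells for the 9 tested genes, with points for the estimate, lines for the 95% interval and ticks below for the estimate in each alternative setting (green where 1 library was left out). The intervals of Lrrc32, Furin and Fgl2 exclude 0, and the ticks of Lrrc32 run from 0.60 to 0.89.

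*Lrrc32* (Entrez 434215, chr7:98489305-98501831, plus strand), which encodes the GARP anchor of latent TGF-beta, had the largest positive fold change among the mediators. It measured 131, 138 and 92.0 CPM in OGT-sufficient replicates 1, 2 and 3 and 207, 183 and 217 CPM in OGT-deficient replicates 1, 2 and 3. Every OGT-deficient sample was above every OGT-sufficient one. The means were 120.4 ± 24.8 and 202.5 ± 17.2 CPM (SD, n = 3 each), a 1.68-fold higher level (95% interval 1.30 to 2.17) with a log2 fold change of 0.75 ± 0.16 (SE), an unadjusted p of 0.00127 and an FDR of 0.299. The unadjusted p was under 0.05 in all 15 alternative settings. Its FDR was 0.0421 with DESeq2, 0.0224 with the exact test and 0.00367 with no filter on low counts, where 0.665% of all genes were called, and between 0.144 and 0.80 in the others. With the macrophage level as a covariate the log2 fold change was 0.73, and OGT-deficient replicate 1, which had the lowest macrophage level of the 6 samples, was at 207 CPM. Among the OGT-sufficient samples *Lrrc32* was lowest in replicate 3, which had the lowest macrophage level of that group.

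*Itgb8* (Entrez 320910, chr12:119162803-119238276, minus strand), the integrin chain that binds the RGD motif printed above, was at 20.8, 16.4 and 11.3 CPM in the OGT-sufficient and 20.3, 18.9 and 21.1 CPM in the OGT-deficient samples. OGT-sufficient replicate 1 lay among the OGT-deficient values, so the groups overlapped. The log2 fold change was 0.32 ± 0.23 (SE, 95% interval -0.20 to 0.83, unadjusted p = 0.197, FDR = 0.792), and it was 0.58 (unadjusted p = 0.0385) without that replicate and 0.12 (unadjusted p = 0.513) without OGT-sufficient replicate 3. The samples held 43 to 81 *Itgb8* counts each.

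*Tgfb1* (Entrez 21803, chr7:25687002-25705077, plus strand), the cytokine itself, was at 133, 181 and 104.1 CPM in the OGT-sufficient and 112.3, 152 and 154 CPM in the OGT-deficient samples. The mean was 139.4 CPM in both groups, with an SD of 38.9 CPM in the first and 23.5 CPM in the second. The 95% interval of the log2 fold change ran from -0.47 to 0.47 around 5.69e-05 (unadjusted p = 0.9998, edgeR quasi-likelihood), so a change of up to 1.39-fold either way lay inside it. The sign of this estimate turned in 7 of the alternative settings.

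*Furin* (Entrez 18550, chr7:80389194-80405441, minus strand), the convertase of the site in codons 275 to 278, was at 51.1, 51.2 and 40.4 CPM in the OGT-sufficient and 56.3, 62.0 and 66.0 CPM in the OGT-deficient samples. The groups did not overlap, with a gap of about 5 CPM between the nearest samples. Means of 47.6 ± 6.23 and 61.4 ± 4.91 CPM (SD, n = 3 each) gave a 1.29-fold higher level (95% interval 1.04 to 1.61), a log2 fold change of 0.37 ± 0.14 (SE), an unadjusted p of 0.0272 and an FDR of 0.650. The unadjusted p was 0.0562 without OGT-sufficient replicate 3, 0.0558 and 0.0704 without OGT-deficient replicates 2 and 3, and 0.0608 with DESeq2. An antisense gene, *Gm44851*, shares 118 exonic bases with *Furin*, and whether the counting used strand is not given in the sources used here.

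The enzymes of the adenosine pathway did not pass the test in either direction. *Entpd1* (Entrez 12495, chr19:40612366-40741602, plus strand) was at 99.3, 87.5 and 45.6 CPM in the OGT-sufficient and 50.9, 96.8 and 136.2 CPM in the OGT-deficient samples, so that OGT-deficient replicate 1 lay near the lowest OGT-sufficient sample and replicate 3 above all of them. Its log2 fold change was 0.29 ± 0.36 (SE, 95% interval -0.53 to 1.11, unadjusted p = 0.446), the widest interval among the mediators after that of *Ebi3*, and it was -0.04 and 0.03 without OGT-deficient or OGT-sufficient replicate 3 and 0.59 and 0.54 without OGT-deficient or OGT-sufficient replicate 1. CD39 is also found on macrophages. The summed CPM of the 12 macrophage markers was 4449, 3864 and 2148 in the OGT-sufficient and 1651, 5510 and 6358 in the OGT-deficient samples, and the same 2 samples, OGT-sufficient replicate 3 and OGT-deficient replicate 1, were lowest for *Entpd1* and for the macrophage markers, while OGT-deficient replicate 3 was highest for both. With the macrophage level as a covariate the log2 fold change of *Entpd1* was 0.06 (unadjusted p = 0.689). The part of macrophage RNA in the *Entpd1* counts was not tested further.

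**Figure D3:**
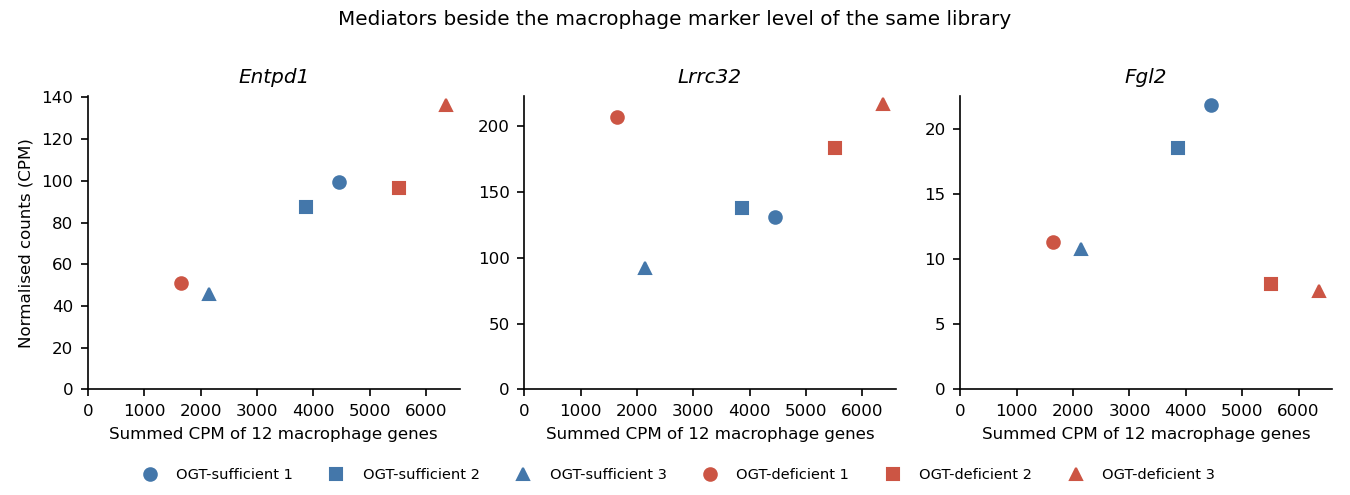
The vertical axes give the CPM of Entpd1, Lrrc32 and Fgl2 and the horizontal axes the summed CPM of 12 macrophage markers in the same library, with blue for OGT-sufficient, red for OGT-deficient and the symbol for the replicate. Entpd1 is lowest in the 2 libraries with the lowest macrophage marker level. Lrrc32 is at 207 CPM in OGT-deficient replicate 1 and Fgl2 at 7.57 CPM in OGT-deficient replicate 3, the libraries with the lowest and the highest marker level. Among the OGT-sufficient libraries each of these genes is lowest in replicate 3, which has the lowest marker level of that group.

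*Nt5e* (Entrez 23959, chr9:88327609-88372089, plus strand), which encodes CD73, was at 115.2, 103 and 70.8 CPM in the OGT-sufficient and 87.6, 62.7 and 79.6 CPM in the OGT-deficient samples. OGT-sufficient replicate 3 lay inside the range of the OGT-deficient samples. The log2 fold change was -0.33 ± 0.20 (SE, 95% interval -0.77 to 0.12, unadjusted p = 0.130, FDR = 0.757). Without that replicate it was -0.50 (unadjusted p = 0.0116), whereas it was -0.14 (unadjusted p = 0.516) without OGT-sufficient replicate 1 and -0.17 (unadjusted p = 0.455) without OGT-deficient replicate 2.

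*Nrp1* (Entrez 18186, chr8:128358591-128505476, plus strand) encodes neuropilin-1, a receptor for semaphorins and for VEGF that marks many Treg cells of thymic origin. Its level was 287, 307 and 177 CPM in the OGT-sufficient and 207, 228 and 194 CPM in the OGT-deficient samples. All 3 OGT-deficient values lay between OGT-sufficient replicate 3 and the other replicates of that group. The log2 fold change was -0.30 ± 0.19 (SE, 95% interval -0.74 to 0.14, unadjusted p = 0.162, FDR = 0.776), and -0.49 without OGT-sufficient replicate 3 (unadjusted p = 0.00151). It was -0.17 (unadjusted p = 0.463) without OGT-sufficient replicate 1 and -0.12 (unadjusted p = 0.592) without OGT-sufficient replicate 2.

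*Ebi3* (Entrez 50498, chr17:55952623-55957022, plus strand) was counted 31, 19 and 13 times in the OGT-sufficient and 14, 9 and 15 times in the OGT-deficient samples. These counts correspond to 8.25, 5.10 and 3.41 CPM against 3.60, 2.27 and 3.92 CPM, so OGT-sufficient replicate 3 again fell within the other group. The log2 fold change was -0.77 ± 0.40 (SE, 95% interval -1.69 to 0.14, unadjusted p = 0.0884, FDR = 0.750). It was -0.34 (unadjusted p = 0.432) without OGT-sufficient replicate 1 and -1.02 (unadjusted p = 0.0265) without OGT-sufficient replicate 3, and 270 of the exonic bases of *Ebi3* are shared with the antisense gene *Gm16712*. *Il10* (Entrez 16153, chr1:131019845-131024970, plus strand) had 3, 3 and 4 counts in the OGT-sufficient and 3, 0 and 1 in the OGT-deficient samples. It did not pass the filter, and with 5 of the 6 samples at or under 3 counts no fold change is given. A difference in *Il10* was not detectable at this depth.

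*Fgl2* (Entrez 14190, chr5:21372673-21378386, plus strand), whose secreted product binds an inhibitory Fc receptor on antigen-presenting cells, had the most negative fold change among the tested mediators. It measured 21.8, 18.5 and 10.8 CPM in the OGT-sufficient and 11.3, 8.06 and 7.57 CPM in the OGT-deficient samples. OGT-sufficient replicate 3 lay just under OGT-deficient replicate 1, so the groups overlapped at that pair. With means of 17.0 ± 5.68 and 8.98 ± 2.03 CPM (SD, n = 3 each) the level was 1.89-fold lower (95% interval 1.19 to 3.01), a log2 fold change of -0.92 ± 0.30 (SE), an unadjusted p of 0.0128 and an FDR of 0.564. The log2 fold change was between -1.15 and -0.67 over the alternative settings, with an FDR between 0.204 and 0.997, and -1.15 (unadjusted p = 0.00107) without OGT-sufficient replicate 3. The unadjusted p was 0.0718 without OGT-sufficient replicate 1, 0.0545 without OGT-deficient replicate 2 and 0.0568 without OGT-deficient replicate 3. *Fgl2* was lowest in OGT-deficient replicates 2 and 3, the 2 samples with the highest macrophage marker level. Among the OGT-sufficient samples it was highest in replicate 1 and lowest in replicate 3, as was the summed macrophage marker level. The part of macrophage RNA in the *Fgl2* counts was not tested.

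Levels of different genes were compared as CPM per kilobase of exon. The length was the union of all annotated exons of a gene, not that of the transcripts expressed, so the order depends in part on the annotation. In OGT-deficient cells *Lrrc32* stood first at 43.2 CPM per kb (39.1 to 46.3), above *Tgfb1* at 27.7 (22.3 to 30.6) without overlap. In OGT-sufficient cells *Tgfb1* at 27.7 (20.6 to 35.9), *Nrp1* at 26.3 (18.1 to 31.4) and *Lrrc32* at 25.7 (19.6 to 29.4) overlapped and could not be ordered. *Entpd1* and *Nt5e* followed in OGT-sufficient cells, at 13.9 and 11.2 CPM per kb with overlapping ranges. In OGT-deficient cells *Entpd1*, at 17.0 CPM per kb (9.12 to 24.4), overlapped *Tgfb1*, *Nrp1* at 21.4 (19.8 to 23.3) and *Nt5e* at 8.91 (7.29 to 10.2), and could not be ordered against them. *Furin*, *Ebi3* and *Fgl2* came next, at 5.18, 4.84 and 4.5 CPM per kb in OGT-sufficient cells with overlapping ranges, and at 6.69, 2.83 and 2.37 in OGT-deficient cells, where *Furin* stood clear of *Ebi3* and *Ebi3* and *Fgl2* overlapped. *Itgb8*, at 1.46 and 1.82 CPM per kb, lay below these in both groups and above *Il10*, at 0.675 and 0.263.

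**Figure D4:**
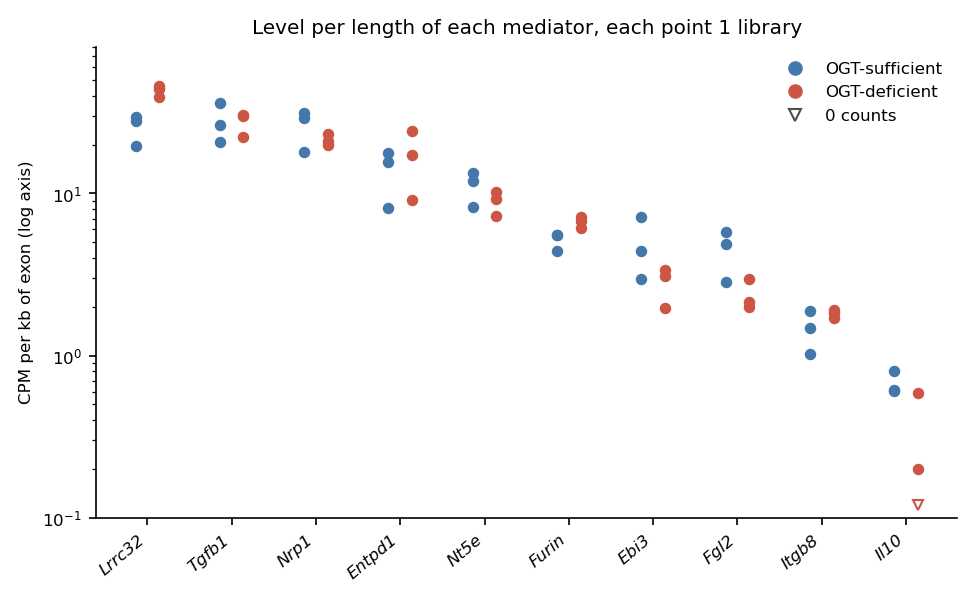
The vertical log axis gives the level per length (CPM per kb of exon) of each gene in each library, blue for OGT-sufficient and red for OGT-deficient, in order of the mean over 6 libraries, with an open triangle at the foot for a library with 0 counts. The 3 red points of Lrrc32, at 39.1 to 46.3, sit above every other point in the plot.

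Among 36 other genes of TGF-beta carriage, activation and signalling, 23 were tested, of which none was higher and 2 were lower at an unadjusted p under 0.05, with a median log2 fold change of -0.12, while 3.09% of all tested genes were higher and 4.01% lower. *Itgb1*, the beta-1 integrin chain and a partner of alpha-v, was at 452, 477 and 329 CPM in the OGT-sufficient and 220.4, 232 and 261 CPM in the OGT-deficient samples, without overlap (log2 fold change -0.82 ± 0.16, SE, unadjusted p = 0.000557, FDR = 0.212). Its FDR was between 0.00348 and 0.906 over the 15 alternative settings, and under 0.1 in 5 of them. *Ldlrad4*, an inhibitor of TGF-beta signalling, was at 53.4 ± 6.69 CPM against 39.1 ± 5.76 CPM (SD, n = 3 each; log2 fold change -0.45 ± 0.15, SE, unadjusted p = 0.0177, FDR = 0.565), and its unadjusted p was under 0.05 in 12 of the 15 alternative settings. The 4 receptors and 3 Smad mediators in the list passed in neither direction, nor did the tested target genes *Itgae* (log2 fold change -0.33) and *Tgif1* (0.08). Neither *Tgfb2* nor any of the 4 latent TGF-beta binding protein genes passed the filter.

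The list of ATP and adenosine handling held 18 genes, 12 of them tested, with a median log2 fold change of 0.00 and 1 gene, a higher one, that passed an unadjusted p of 0.05, against 3.09% of all tested genes. *Ada*, which breaks adenosine down, was at 8.25, 8.85 and 6.55 CPM in the OGT-sufficient and 10.3, 12.9 and 11.2 CPM in the OGT-deficient samples, higher without overlap (log2 fold change 0.54 ± 0.22, SE, unadjusted p = 0.0388, FDR = 0.675), and its unadjusted p was under 0.05 in 7 of the 15 alternative settings. *P2rx7*, an ATP-gated channel and the most abundant gene of the list, was at 119.3 ± 35.2 against 132.4 ± 8.98 CPM (SD, n = 3 each, unadjusted p = 0.464). The adenosine receptor *Adora2a* had a log2 fold change of -0.22 (unadjusted p = 0.333), and the other 3 adenosine receptors had at most 3 counts in any sample.

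Around interleukin-10 and interleukin-35, 13 of 17 listed genes were tested, of which 2 were higher and 3 lower at an unadjusted p under 0.05, with a median log2 fold change of 0.03, beside 3.09% higher and 4.01% lower among all tested genes. None of the 4 chains that pair with EBI3 or with each other (*Il12a*, *Il27*, *Il12b*, *Il23a*) passed the filter, the highest count being 10. *Il6st*, the gp130 receptor chain, was higher without overlap (268.8 ± 19.0 against 349.9 ± 27.0 CPM, SD, n = 3 each; log2 fold change 0.38 ± 0.11, SE, unadjusted p = 0.00892, FDR = 0.519). Of the 7 listed transcription factors of *Il10*, 1 was higher and 3 were lower. *Irf4* was higher without overlap (95.9 ± 9.59 against 143.9 ± 16.8 CPM, SD, n = 3 each; log2 fold change 0.58 ± 0.13, SE, unadjusted p = 0.00163, FDR = 0.306). *Bhlhe40*, a repressor of *Il10*, was lower without overlap (47.1 ± 12.6 against 25.7 ± 4.15 CPM, SD, n = 3 each; log2 fold change -0.87 ± 0.22, SE, unadjusted p = 0.00323, FDR = 0.385). *Batf* (log2 fold change -0.45, unadjusted p = 0.0202) and *Ahr* (-0.51, unadjusted p = 0.0436) were lower as well, *Ahr* with overlapping groups. Of the 15 alternative settings, 10 kept *Batf* and 9 kept *Ahr* under that p, and *Ahr* was at -0.28 (unadjusted p = 0.244) without OGT-sufficient replicate 1 and -0.34 (unadjusted p = 0.192) without OGT-deficient replicate 2.

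Of 12 ligands, co-receptors and receptors of NRP1 and FGL2, 8 were tested with a median log2 fold change of 0.09, and 1 was lower at an unadjusted p under 0.05, against 4.01% of all tested genes. *Plxna3*, a semaphorin co-receptor, was counted 17, 11 and 35 times against 11, 5 and 12 times (log2 fold change -1.20 ± 0.51, SE, unadjusted p = 0.0423, FDR = 0.685), with overlapping groups and the highest count in OGT-sufficient replicate 3. Without that replicate its log2 fold change was -0.62 (unadjusted p = 0.221), and its unadjusted p was under 0.05 in 9 of the 15 alternative settings. The Fc receptor gene *Fcgr2b*, whose product binds FGL2, had a log2 fold change of 0.12 (unadjusted p = 0.796).

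Of 17 other genes with a part in Treg suppression, 15 were tested, and 2 were higher and 5 lower at an unadjusted p under 0.05, with a median log2 fold change of -0.09, where 3.09% of all tested genes were higher and 4.01% lower. The study had already named *Klrg1* and *Gzmb* as lower in these same data, and the list was chosen with earlier results known. *Klrg1*, a receptor of terminally differentiated Treg cells, was counted 32, 44 and 24 times in the OGT-sufficient and 13, 10 and 5 times in the OGT-deficient samples (log2 fold change -1.88 ± 0.39, SE, unadjusted p = 0.00103, FDR = 0.268). *Gzmb*, the cytotoxic protease granzyme B, was counted 17, 32 and 21 against 11, 3 and 5 times (log2 fold change -1.91 ± 0.48, SE, unadjusted p = 0.00327, FDR = 0.385). The checkpoint receptor genes *Tigit* (log2 fold change -1.02, unadjusted p = 0.00604) and *Pdcd1* (-0.68, unadjusted p = 0.00544) were lower without overlap, and *Icos* (-0.45, unadjusted p = 0.0231) was lower with overlap. In the other direction, *Lag3* had a log2 fold change of 0.78 (unadjusted p = 0.0432) and *Tnfrsf18*, which encodes GITR, one of 0.57 (unadjusted p = 0.0439), the latter without overlap. Without OGT-sufficient replicate 3 these were 0.53 (unadjusted p = 0.104) for *Lag3* and 0.32 (unadjusted p = 0.0428) for *Tnfrsf18*, and *Lag3* was at 1.24 without OGT-sufficient replicate 2. The unadjusted p was under 0.05 in 11 of the 15 alternative settings for *Lag3*, in 13 for *Tnfrsf18* and in 10 for *Icos*. *Ctla4* had a log2 fold change of 0.19 (unadjusted p = 0.198). *Il2ra* (log2 fold change 0.44, unadjusted p = 0.0579) and *Fasl* (0.69, unadjusted p = 0.0675) did not pass an unadjusted p of 0.05 in the same quasi-likelihood fit. Their CPM was higher without overlap. The unadjusted p was under 0.05 in 4 of the 15 alternative settings for *Il2ra* and in 2 for *Fasl*, which had 11 to 26 counts per sample. In this list 3 genes were higher and 4 lower without overlap, where 5.72% and 7.48% of all tested genes were. No gene of any of these lists reached an FDR of 0.1 in the reported quasi-likelihood fit. With no filter on low counts the FDR was 0.0068 for *Klrg1*, 0.0339 for *Gzmb*, 0.0327 for *Irf4* and 0.0246 for *Bhlhe40*. With the exact test it was 0.00334, 0.0302, 0.0814 and 0.0767 in the same order. These settings called 0.665% and 0.731% of all genes. *Klrg1* also had an FDR of 0.0662 with DESeq2, where 0.347% were called.

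**Figure D5:**
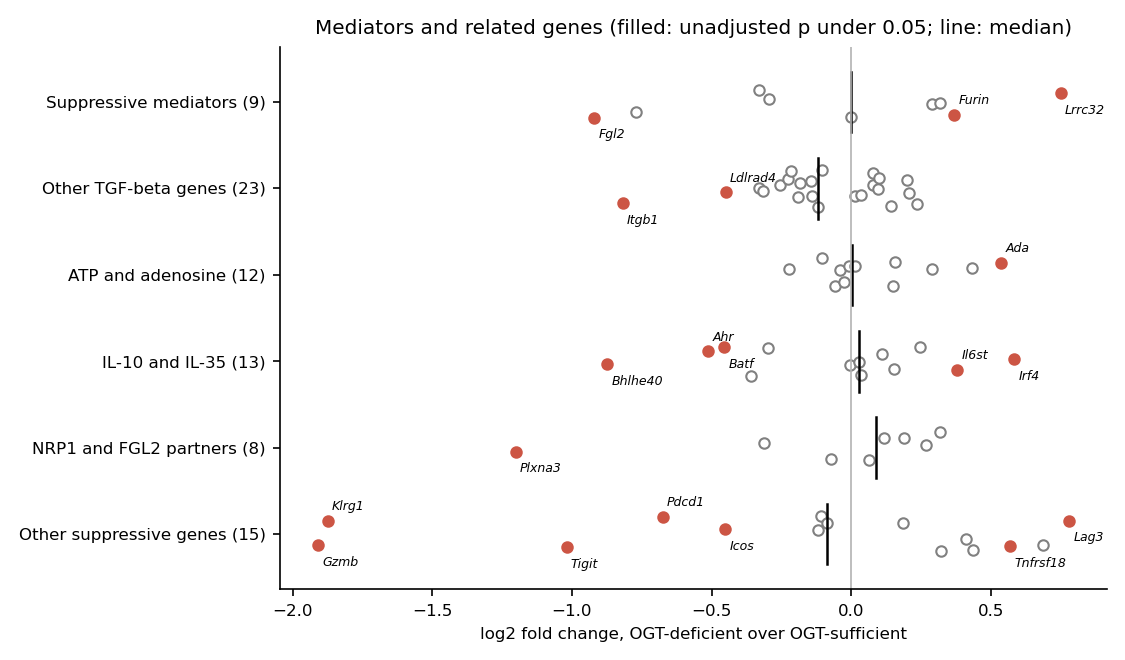
The horizontal axis gives the log2 fold change of each tested gene in the 6 groups named on the left (number tested in brackets), with filled points for an unadjusted p under 0.05 and a vertical line for the group's median. Filled points lie on both sides of 0 among the suppressive mediators, the IL-10 and IL-35 genes and the other suppressive genes, and the medians lie between -0.12 and 0.09.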

How the data were processed

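YFP+ Treg cells were profiled by 2x50 paired-end RNA sequencing. The authors trimmed reads with Trimmomatic 0.33 and aligned them with Bowtie2 2.2.4.0 to mm10 per the submitters' processing notes, which name featureCounts where the methods name Cuffquant. They deposited a whole-number count per gene symbol and sample, without normalization; annotation, strand and shared-read handling are not given in the sources used here. The authors' own fold changes, p-values, FDR and group means in the same table were not used.

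Samples were grouped by genotype label. The mediators and gene lists were chosen with earlier results of these data known. Counts were tested with edgeR 4.0.16 in R 4.3.3 (TMM scaling, quasi-likelihood, filterByExpr at a minimum count of 10, no block, Benjamini-Hochberg over 10949 genes), with DESeq2 1.42.0 as an alternative, after a test on simulated data. SE is the size of the log2 fold change divided by the square root of edgeR's F, and intervals are 95% t intervals. An exact permutation test of 3 against 3 cannot go below a p of 0.1. Nothing states that replicates are separate mice, so p-values measure the spread between samples; replicates differed by more than counting noise (chi-square per degree of freedom 2.82 to 15.1). CPM uses TMM library sizes of 3727491 to 3968979, and floors cover counting error only. The ribosomal RNA gene *Rn45s* took 24.2% to 37.1% of counts. Exon lengths and overlaps are from GENCODE M21, gene coordinates and promoters from RefSeq GRCm38.p6. Named genes are the mediators, *Ogt*, *Foxp3* and, per list, those at an unadjusted p under 0.05, filled up to 2 with the most abundant. To these, *Itgae*, *Tgif1*, *Adora2a*, *Fcgr2b*, *Ctla4*, *Il2ra* and *Fasl* were added after their values were seen. Of the genes this rule names, 1 is counted in its list but its own values are not reported here.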

Additional observations from a re-analysis of the deposited data

How the results depend on the processing

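*Lrrc32* was the mediator called at an FDR of 0.1 by DESeq2, by the exact test and with no filter (1 mediator each, 0 in every other setting run). Over all genes the calls at that FDR numbered 38, 80 and 131 in these settings, against 3 in the reported fit, 31 with the macrophage level as a covariate, 0 with the replicate block and 0 to 9 when 1 library was left out. At an unadjusted p under 0.05 there were 452 genes with DESeq2, 1208 with no filter, 454 to 852 with 1 library left out and 777 as reported, and 3 mediators as reported against 1 to 5 with 1 library left out (5 without OGT-sufficient replicate 3, 1 without OGT-deficient replicate 2 or 3). The share of lower genes among these was 56.5% as reported and 66.8% with library size only, which shifted the median log2 fold change of all genes to -0.06, but 48.5% with DESeq2, 49.5% with no filter, 52.2% without OGT-sufficient replicate 3 and 42.6% to 47.5% with any other library left out. The sources used here do not say that same-numbered replicates are paired. Correlations of same-numbered deviations were -0.28, 0.01 and -0.12, which cannot exclude a shared batch. The replicate block left 2 mediators, *Lrrc32* and *Fgl2*, and 679 genes at an unadjusted p under 0.05. Of 134 mediator fold changes over the 15 alternatives 8 turned sign, none of them past the threshold. *Tgfb1* went to -0.0361 with library size only, -7.24e-06 with the exact test, -0.000649 with a minimum of 10 counts in all samples and -0.0772 with the macrophage covariate, and ran from -0.164 (without OGT-sufficient replicate 3) to 0.267 with 1 library left out. Ranges of the same kind were -0.0385 (without OGT-deficient replicate 3) to 0.589 for *Entpd1* and -0.0295 (without OGT-sufficient replicate 3) to 0.428 for *P2rx7*. The cause of these changes was not tested. Depth limits *Il10*, *Ebi3* and the interleukin partner chains.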
